A study of Mus musculus with 2 samples.

Results

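Many protein-coding genes can be transcribed from more than 1 promoter, and each promoter gives its transcripts a first exon of their own. Here a gene was taken as using alternative first exons when annotated spliced transcripts of that gene began in 2 or more first exons that do not overlap, each with at least 10 reads in each of 2 long-read RNA sequencing libraries of mouse hippocampus. The rule found 212 genes with 438 such first exons. It was applied to 12260 protein-coding genes with at least 1 read of an annotated spliced transcript, which held 15219 first exons with a read. Of those genes, 2453 had 2 or more first exons read, most of them below the read minimum. 200 of the 212 genes had 2 first exons past the minimum, 11 had 3, and Hpca, the gene of the neuronal calcium sensor hippocalcin, had 5. Because the genes were chosen by their reads at these first exons in the same libraries, their number and the presence of at least 2 used starts are a description and not a finding.

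The tissue was hippocampus, named in the source label as a layer of it, from female mice of the strain B6CASTF1/J, the first-generation cross between the inbred strains C57BL/6J and CAST/EiJ, taken when the animals were 14 days old. There was 1 group and no treatment, with 2 biological replicates. Every library was made from 3 pooled animals, with 2 µg of total RNA as input and spike-in RNAs added. The characteristics field gives the libraries different animal numbers, but another line of replicate 2 carries those of replicate 1, so separate pools rest on that field. Pooling leaves differences between animals unmeasured, and reads of the parental alleles were not separated. Replicate 1 held 1168366 reads and replicate 2 held 888704, so 1 read was worth 0.856 and 1.13 CPM (reads per 1e6 reads of the library). The 438 first exons held 79702 and 63078 reads, 11.4% of the reads of annotated spliced transcripts of protein-coding genes in either library. The summed level of 8 hippocampal neuron markers was 4258 CPM in replicate 1 and 4163 CPM in replicate 2, and all 8 were read. Single markers differed, as Prox1, a dentate gyrus marker, at 6.85 and 38.3 CPM, C1ql2 at 81.3 and 142 CPM and Pcp4 at 316 and 227 CPM. The summed level of 5 choroid plexus markers, led by Ttr, was 4651 and 6.75 CPM, so these markers were high in replicate 1 and near 0 in replicate 2. The summed levels of 5 astrocyte markers were 2800 and 4427 CPM, of 5 oligodendrocyte markers 4635 and 6235 CPM, and of 4 blood markers, 3 of them read, 463 and 298 CPM.

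A promoter sets where transcription begins. A first exon that lies far upstream can carry its own start codon and give the protein another beginning, whereas a first exon upstream of a shared start codon changes only the untranslated leader. In mammals many promoters lie in CpG islands, stretches in which the dinucleotide CG has not been depleted, and others are poor in CG and are more often tied to particular tissues. In brain, alternative promoters are well known for genes of the cytoskeleton and of signalling, such as tropomyosins and protein kinases.

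The sequences that carry the contrasts described here are given first. For 4 genes whose leading starts differ in CG content, the 120 bases before the RefSeq start nearest the annotated start are shown on the GRCm38.p6 build (from RefSeq), 5′ to 3′, with each CG dinucleotide in capitals. In Rtn1, which encodes the endoplasmic reticulum shaping protein reticulon 1, the upstream window holds 2 CG and the downstream window 25.
Rtn1-202 (chr12:72409055-72409174, minus strand): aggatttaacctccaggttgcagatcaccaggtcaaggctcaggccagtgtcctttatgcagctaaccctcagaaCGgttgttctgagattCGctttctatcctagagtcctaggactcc
Rtn1-201 (chr12:72236728-72236847, minus strand): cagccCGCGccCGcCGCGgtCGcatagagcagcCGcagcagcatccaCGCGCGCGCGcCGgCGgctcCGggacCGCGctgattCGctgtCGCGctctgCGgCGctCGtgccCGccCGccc
In Chn1, the gene of the Rac-specific GTPase activator chimaerin 1, the order is the opposite, with 21 CG upstream and 2 downstream.
Chn1-210 (chr2:73775347-73775466, minus strand): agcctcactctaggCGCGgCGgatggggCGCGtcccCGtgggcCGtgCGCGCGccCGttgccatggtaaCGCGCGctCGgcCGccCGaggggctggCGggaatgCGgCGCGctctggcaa
Chn1-202 (chr2:73660424-73660543, minus strand): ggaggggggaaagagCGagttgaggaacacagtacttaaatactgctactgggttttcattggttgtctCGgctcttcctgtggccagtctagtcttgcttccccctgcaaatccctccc
In Prkacb, which encodes the beta catalytic subunit of protein kinase A, there are 21 CG upstream and 2 downstream.
Prkacb-202 (chr3:146812947-146813066, minus strand): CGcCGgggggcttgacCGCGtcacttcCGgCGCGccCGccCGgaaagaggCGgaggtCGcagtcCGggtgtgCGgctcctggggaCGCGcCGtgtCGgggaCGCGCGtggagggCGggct
Prkacb-203 (chr3:146770239-146770358, minus strand): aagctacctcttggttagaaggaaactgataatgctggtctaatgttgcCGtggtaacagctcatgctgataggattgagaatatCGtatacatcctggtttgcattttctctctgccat
In Acsl6, which encodes a long-chain acyl-CoA synthetase, there are 19 CG upstream and 1 downstream. The window of a start further upstream with fewer reads, Acsl6-204, is not shown and holds 2 CG.
Acsl6-210 (chr11:54304084-54304203, plus strand): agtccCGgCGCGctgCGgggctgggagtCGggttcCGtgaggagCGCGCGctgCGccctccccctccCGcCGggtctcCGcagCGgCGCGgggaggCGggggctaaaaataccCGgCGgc
Acsl6-207 (chr11:54314783-54314902, plus strand): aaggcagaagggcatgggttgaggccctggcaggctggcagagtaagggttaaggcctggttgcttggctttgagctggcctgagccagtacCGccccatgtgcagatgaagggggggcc

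For 5 genes in which the choice of first exon changes the start of the coding sequence, the coding bases in each first exon are shown up to the splice donor, or the first 60 of them, with the start codon in capitals (GENCODE M21 transcripts on GRCm38). Each of these first exons has a start codon of its own. For Rtn1, the upstream first exon holds 241 coding bases and the downstream first exon 61.
Rtn1-202 (chr12:72408492-72408551, minus strand): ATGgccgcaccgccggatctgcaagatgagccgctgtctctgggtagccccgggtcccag
Rtn1-201 (chr12:72236530-72236589, minus strand): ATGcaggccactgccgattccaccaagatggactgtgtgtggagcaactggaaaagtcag
For Crmp1, a member of the collapsin response mediator proteins that act in axon growth, the counts are 381 and 39.
Crmp1-202 (chr5:37242145-37242204, plus strand): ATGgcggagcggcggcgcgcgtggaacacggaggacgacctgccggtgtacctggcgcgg
Crmp1-201 (chr5:37246058-37246096, plus strand): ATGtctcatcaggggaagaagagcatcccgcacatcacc
For Olfm1, which encodes the secreted neuronal glycoprotein olfactomedin 1, they are 21 and 150.
Olfm1-204 (chr2:28193442-28193462, plus strand): ATGggcaccgaactcacccaa
Olfm1-201 (chr2:28205950-28206009, plus strand): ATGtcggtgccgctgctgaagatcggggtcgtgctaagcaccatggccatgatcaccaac
For Adk, which encodes adenosine kinase, they are 62 and 14.
Adk-201 (chr14:21052639-21052698, plus strand): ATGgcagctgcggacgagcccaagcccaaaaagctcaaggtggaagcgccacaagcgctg
Adk-207 (chr14:21076308-21076321, plus strand): ATGacgtccaccag
For Prkacb, 3 of the 5 first exons read passed the read minimum. The upstream one of these holds 46 coding bases against 10 and 7 in the others, which lie near each other.
Prkacb-202 (chr3:146812638-146812683, minus strand): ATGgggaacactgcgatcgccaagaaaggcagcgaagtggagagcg
Prkacb-204 (chr3:146770516-146770525, minus strand): ATGggcttgt
Prkacb-203 (chr3:146769934-146769940, minus strand): ATGaatg

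Overlapping first exons of a gene were joined, and the joined stretches were 22 to 5823 bases wide (median 262.5). The transcript with the most reads at a first exon was typed protein_coding in the annotation for 392 of the 438, retained_intron for 33 and processed_transcript for 13. Where that transcript was coding, its start codon lay in the first exon itself for 190 of 392. A long read that was cut short at its 5′ end can be assigned to a shorter annotated transcript if that transcript begins at a splice donor which a longer transcript of the gene uses inside. Such first exons were therefore kept apart. 127 of the 438 (29.0%) had at least 50% of their reads on transcripts of this kind and are called internal-donor first exons. The other 311 had a donor of their own. Over all 5412 first exons of genes with 2 or more first exons read, 2018 (37.3%) were of the internal-donor kind. In 99 genes both leading first exons (those with the most reads over both libraries) had their own donor. In the other 113 at least 1 was of the internal-donor kind, in 98 of them only the downstream one. The data do not show which internal-donor reads were full length, so results are given for the 99 genes apart where they differ.

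The starts of the 2 leading first exons lay from 51 to 383450 bases apart, with a median of 2376.5. In 86 genes they were less than 1000 bases apart, in 54 from 1000 to 10000 bases, and in 72 at least 10000 bases. The 13 genes with starts at least 100000 bases apart included Oxr1 (383450 bases), Tcf4 (247705), Chn2 (232917), Rtn1 (172330), Atp2b2 (150487), Chn1 (114940), Sgk1 (112482), Cntn1 (110192), Dlgap4 (107340) and Gpm6b (105720). Wide spacing went with a change in the coding sequence among genes whose starts have their own donors. Of the 46 such genes with starts at least 10000 bases apart, the main transcripts of the leading first exons had different start codons in 36 and the same start codon in 9. Of the 38 such genes with starts less than 1000 bases apart, 9 had different start codons and 28 the same. At 1000 to 10000 bases the counts were 6 and 8 of 15. These are properties of the annotation at the first exons that were read, and they carry no test. Over all 212 genes the start codon was the same in 87, differed in 82, and in 42 at least 1 of the main transcripts had no coding sequence.

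**Figure D1:**
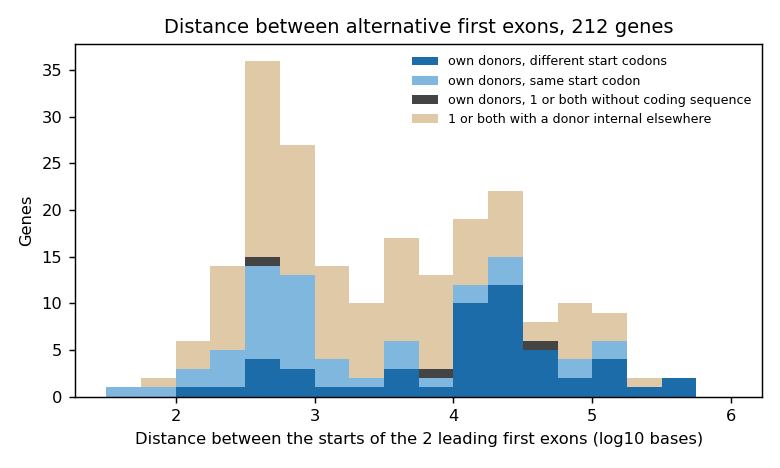
Number of genes (y axis) by the distance between the starts of the 2 leading first exons (x axis, log10 bases), stacked by the kind of donor and by whether the main transcripts share a start codon. Genes with their own donors and a shared start codon lie mostly under 1000 bases, and those with different start codons mostly at 10000 bases or more.

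The share of a first exon is its percentage of the reads over all annotated first exons of its gene that were read. The leading first exon held a median share of 71.8% in replicate 1 and 71.2% in replicate 2 (71.5% ± 0.396, SD of the medians, n = 2 libraries) over the 212 genes. In the 99 genes with own donors the median was 68.3% and 68.0%, and in the other 113 it was 78.4% and 77.9%. Over the 1332 protein-coding genes with 2 or more first exons read and at least 20 reads in each library, members or not, the median was 97.3% and 97.1%. The rule asks for at least 10 reads at a second first exon, so it favours balanced genes, and the lower share is no finding. In tissue of many cell types, a first exon used in fewer cells and one used less in each cell cannot be told apart. Mean leading shares ran from 39.5% to 99.7%. They were under 60% in 50 genes and at least 90% in 36. The leading first exon was the upstream one of the pair in 125 genes and the downstream one in 87. Among genes with own donors these counts were 52 and 47.

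The median absolute difference was 3.92 percentage points over the 212 genes and 2.95 points over the 116 genes read at least 100 times in both libraries. Over the 1332 genes it was 2.04 points, where most shares were near 100%. Pearson's r across the 212 genes was 0.888 and Spearman's rho 0.892. In the 99 genes with own donors the libraries lay farther apart, with a median absolute difference of 4.69 points, r of 0.829, rho of 0.811 and 19 genes at 10 points or more. In the other 113 these values were 3.32 points, 0.921, 0.929 and 15 genes. These describe agreement across genes that share the same libraries, and genes are not independent replicates. The same first exon led in both libraries in 198 genes. In the other 14 the lead changed, as in Gpm6b, Pacsin1 and Abr, which lay near equal use, and in Mrpl48, where the leading share was 69.3% of 75 reads in replicate 1 and 44.4% of 27 in replicate 2. None of these 14 passed the test described next.

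**Figure D2:**
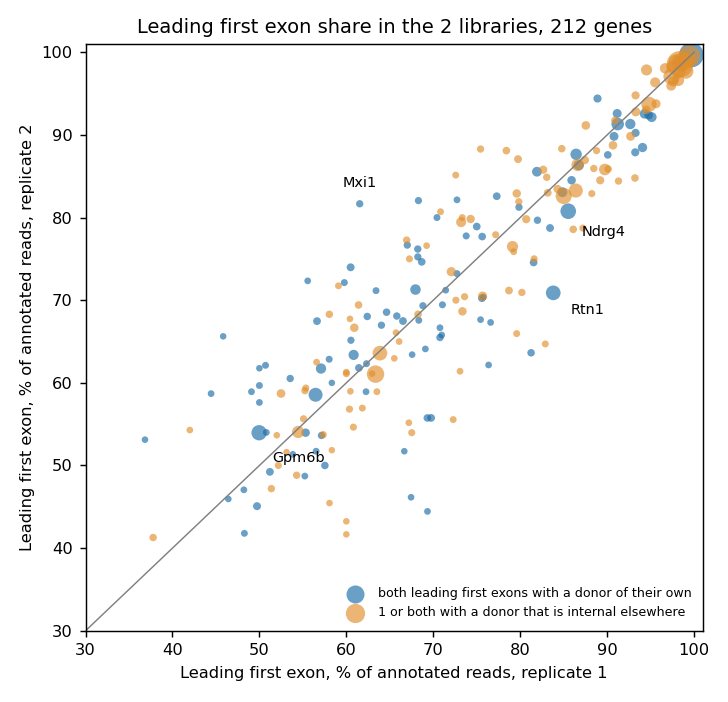
Share of the leading first exon (% of the gene's annotated first exon reads) in replicate 1 (x axis) and replicate 2 (y axis), 1 point per gene, with point area growing with the reads. The line marks equal shares. Rtn1 lies below the line, at 83.8% and 70.9%, and Mxi1 above it, at 61.5% and 81.7%.

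Each gene was tested with a two-sided Fisher's exact test of the leading first exon against the rest by library, with Benjamini-Hochberg adjustment over the 1332 genes and a threshold of 0.05. The test treats reads as the unit and so compares these libraries, not conditions. 1 gene passed, Rtn1, which is also 1 of the 212. That is 0.0751% of the genes tested, with 0 called in the direction of a higher leading share in replicate 2 and 0.0751% in the direction of a higher one in replicate 1. At an unadjusted p under 0.05 there were 37 of 1332 genes (2.78%), and 21 of the 212. The members have more reads outside the leading first exon than the other genes by the rule, so their count is not set against that share as a result. On simulated reads with a shift of 30 points in 200 of 1332 genes, the test recovered 83.5% of them, and 98.5% of the 67 with at least 100 reads in each library. It also called 4 unchanged genes. Among members with at least 100 reads in each library, real differences reached only 20.1 points. The recovery of differences of that size or smaller was not simulated.

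Rtn1 (chromosome 12, minus strand) was read from 2 main starts with transcripts of unlike length. The upstream first exon (chr12:72408311-72409054) begins Rtn1-202, of 3629 nt with a coding sequence of 2340 nt, and held 255 reads in replicate 1 and 330 in replicate 2. The downstream first exon (chr12:72236529-72236724) begins Rtn1-201, of 1544 nt with a coding sequence of 624 nt, and held 1319 and 806 reads. The long form carries a long N-terminal region that the short form lacks, and both end in the reticulon domain that sits in the membrane. The downstream share was 83.8% in replicate 1 (95% exact interval 81.9% to 85.6%) and 70.9% in replicate 2 (68.2% to 73.5%), and the intervals do not overlap. The difference was 12.9 points toward the short form in replicate 1 (p = 1.36e-15, adjusted p = 1.82e-12 by Fisher's exact test with Benjamini-Hochberg adjustment). Adjusted p over the alternatives that tested the gene ran from 5.83e-13 to 7.12e-12. The level of the upstream first exon was 218 CPM in replicate 1 and 371 CPM in replicate 2, and that of the downstream one 1129 and 907 CPM. The alternative limited to genes whose forms are of similar length leaves Rtn1 out, so it gives no value for it. The marker sums of choroid plexus, astrocytes and oligodendrocytes given above differ between the libraries, and their part in this difference was not tested. Over the 212 genes the share of the longer leading form was higher in replicate 2 in 115 genes and lower in 96, and where the forms differed at least 1.5 times in length the counts were 40 and 39 of 79.

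Among the other members, Ndrg4, a gene of the N-myc downstream regulated family expressed in neurons, had the lowest p. Its downstream first exon (chr8:95703037-95703177) held 1394 of 1630 reads in replicate 1 and 1222 of 1513 in replicate 2, a share of 85.5% and 80.8% (p = 0.000401, adjusted p = 0.154, Fisher's exact test with Benjamini-Hochberg adjustment). When reads of unannotated spliced models were counted as well, the shares were 84.0% and 78.3%, and the adjusted p was 0.0195. Mxi1, which encodes a MAX-binding repressor of transcription, showed the largest difference among genes read at least 100 times in both libraries. Its downstream first exon (chr19:53329413-53329805) held 64 of 104 reads in replicate 1 and 98 of 120 in replicate 2, 61.5% and 81.7% (adjusted p = 0.255, Fisher's exact test). Pnkd, the gene linked to paroxysmal dyskinesia, differed in the other direction, with the upstream first exon at 81.2% of 160 reads and 63.6% of 110 (adjusted p = 0.377, Fisher's exact test). Mxi1 and Pnkd were chosen after their values were seen. Of the 116 genes read at least 100 times in both libraries, 9 differed by at least 10 points, and the largest of these differences was 20.1 points.

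**Figure D3:**
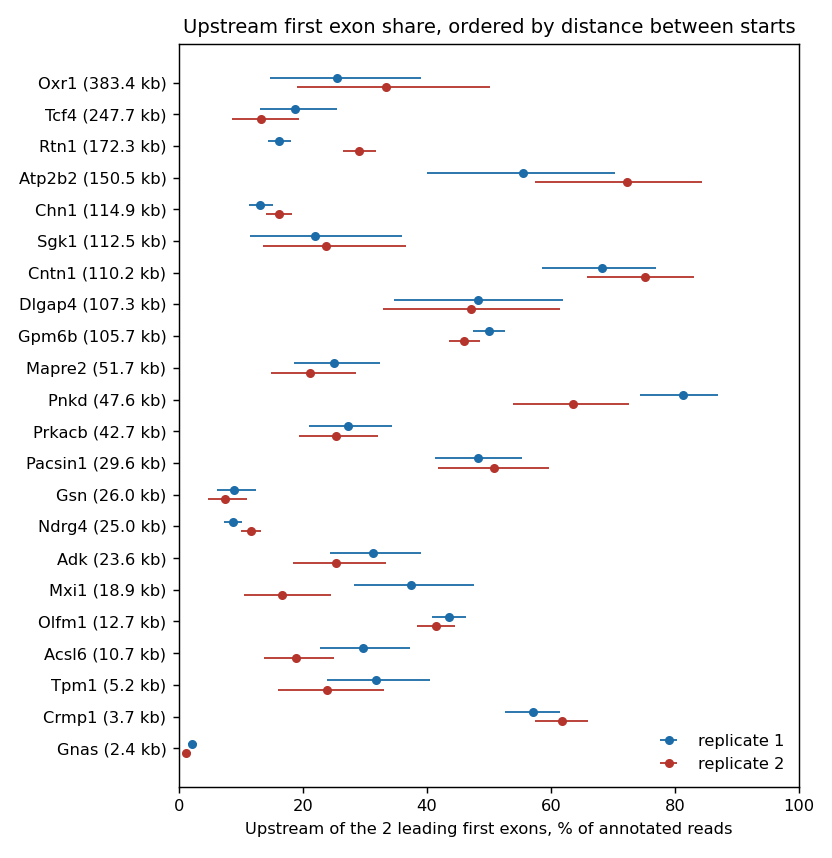
Share of the upstream one of the 2 leading first exons (x axis, % of annotated first exon reads of the gene) in replicate 1 (blue) and replicate 2 (red) for 22 genes, ordered by the distance between starts. Points are shares and bars are 95% exact binomial intervals for counting error, which separate in Rtn1, Mxi1 and Pnkd and overlap in Gpm6b, Olfm1 and Crmp1. Mxi1 and Pnkd were chosen after their values were seen and did not pass the test, so their separated intervals are no further support.

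Several genes of membrane shaping and myelin were among the members. Of 13 listed genes of membrane and endoplasmic reticulum shaping, all 13 were read, 7 had 2 or more first exons read, and 4 were members, of which Rtn1 passed the test. Their median leading share was 80.2%, against 71.5% over all 212 genes. Gpm6b encodes a proteolipid-family membrane glycoprotein found in neurons and glia. Its first exons (chrX:166238911-166239136 and chrX:166344692-166345081) held 744 and 743 reads in replicate 1 and 697 and 817 in replicate 2. The upstream share was thus 50.03% and 46.0%, near equal use in both libraries. The upstream exon holds only 4 coding bases before its donor, and the coding sequences of Gpm6b-201 and Gpm6b-206 are 807 and 864 nt long. Mbp, which encodes myelin basic protein, lay at the other extreme. Its upstream first exon on chromosome 18, the start of the long forms known as golli, held 16 reads in each library. The downstream first exon held 2997 and 3340 reads, so the upstream share was 0.531% and 0.477%. At least 1 of these first exons is of the internal-donor kind, so cut-short reads of longer forms could be counted there.

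Genes of the cytoskeleton and its linkers gave 5 members of 36 listed genes (30 read, 15 with 2 or more first exons read, 0 called), with a median leading share of 59.4%. They were Add3, Crmp1, Epb41l1, Sept9 and Tpm1. Crmp1 used its upstream first exon (chr5:37242080-37242525) for 290 of 508 reads in replicate 1 and 321 of 520 in replicate 2. The upstream share was 57.1% and 61.7%, so the form with the longer coding sequence (2058 nt against 1716 nt) led in both libraries. Tpm1, the gene of an alpha-tropomyosin that coats actin filaments, used its downstream first exon (chr9:67043578-67043962) for 88 of 129 and 80 of 105 reads. That is 68.2% and 76.2%, and the forms starting there have a coding sequence of 735 nt against 843 nt from the upstream start. Sept9, a septin, led with a first exon at chr11:117332345-117332470 at 50.8% of 63 reads and 54.0% of 50, with the next first exon 625 bases upstream and the same start codon.

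Kinase and cyclic nucleotide signalling gave 3 members of 26 listed genes (25 read, 8 with 2 or more first exons read, 0 called), Gnas, Pde4b and Prkacb, with a median leading share of 51.6%. Prkacb had 3 starts past the read minimum, among 5 first exons read. The most upstream of the 3 (chr3:146812638-146812960) held 50 and 49 reads, the middle one (chr3:146770516-146770781) 40 and 56, and the most downstream (chr3:146769934-146770261) 91 and 87. Their shares were 27.3%, 21.9% and 49.7% in replicate 1 and 25.4%, 29.0% and 45.1% in replicate 2. None of these 3 starts was rare. Gnas encodes the alpha subunit of the stimulatory G protein at an imprinted locus. A non-coding first exon (chr2:174327699-174327941) that lies 2390 bases upstream of the main first exon held 31 and 15 reads, 2.02% and 1.17%, against 1505 and 1262 at the main one. Here too at least 1 of the pair is of the internal-donor kind, where cut-short reads could be counted. Imprinted loci as a list gave 2 members of 12 (9 read, 4 with 2 or more first exons read, 0 called, median leading share 72.3%), Gnas and Inpp5f. Inpp5f, an inositol phosphatase gene, had its leading first exons 76186 bases apart with 13 and 17 reads upstream and 11 and 14 downstream. The gene also had annotated reads outside this pair.

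GTPase regulators gave 3 members of 22 listed genes (18 read, 14 with 2 or more first exons read, 0 called), Abr, Chn1 and Chn2, with a median leading share of 52.4%. In all 3 the downstream first exon had a donor that longer transcripts use inside, although the distances were 62116, 114940 and 232917 bases. Chn1 used the downstream first exon (chr2:73659680-73660406) for 1066 of 1234 reads in replicate 1 and 1025 of 1231 in replicate 2, 86.4% and 83.3%. The upstream first exon (chr2:73775023-73775346), read mainly as Chn1-210, held 162 and 198 reads. Chn2 was evenly divided, with 15 and 15 reads upstream and 17 and 16 downstream. Abr, which encodes a protein with GTPase activating and exchange factor domains, held 46 and 63 reads upstream and 56 and 59 downstream, 42.2% and 50.4% upstream. At these depths the 95% intervals of Chn2 spanned from 29.1% to 66.9% upstream, so an order of the starts is not detectable.

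Synapse, channel and growth factor genes gave 2 members of 37 (26 read, 11 with 2 or more first exons read, 0 called, median leading share 53.0%), of which Gabbr1 is described here. Gabbr1 encodes a subunit of the metabotropic GABA receptor and held 48 and 35 reads at chr17:37046028-37046289 and 41 and 35 at chr17:37050631-37051159, 4603 bases apart. The upstream start was read mainly as Gabbr1-209, with a coding sequence of 687 nt, and the downstream start as Gabbr1-203, with 2532 nt. Since 1 or both are of the internal-donor kind, cut-short reads of longer forms could be counted in this split. The list of transcription and chromatin genes gave 1 member of 25 (22 read, 13 with 2 or more first exons read, 0 called), Tcf4, a basic helix-loop-helix factor of neuronal development. Its downstream first exon on chromosome 18 held 94 of 166 reads in replicate 1 and 112 of 166 in replicate 2, 56.6% and 67.5%, and the upstream one 31 and 22.

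Metabolism and redox genes gave 3 members of 17 (17 read, 9 with 2 or more first exons read, 0 called, median leading share 82.97%). Acsl6 had 3 starts past the read minimum, among 4 first exons read. The most downstream of the 3 (chr11:54314896-54315207) held 98 and 145 reads, the middle one (chr11:54304202-54304333) 48 and 37, and the most upstream 16 and 12. The downstream share was 60.5% and 74.0% (p = 0.00878, adjusted p = 1, Fisher's exact test with Benjamini-Hochberg adjustment). Txnrd1, which encodes thioredoxin reductase 1, held 75 and 74 reads upstream (87.2% and 78.7%) and 11 and 20 downstream. Aldoa, the aldolase A gene, used the downstream first exon for 2932 of 2975 reads in replicate 1 and 1890 of 1913 in replicate 2, 98.6% and 98.8%. In Txnrd1 and Aldoa at least 1 leading first exon is of the internal-donor kind, where cut-short reads could be counted. Over the 8 lists, 22 of 187 listed genes were members. The lists and the members were chosen with results of these libraries known, and their counts are a description.

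Other long and short promoter forms are given by their values, chosen after these were seen. Olfm1 used its downstream first exon (chr2:28205659-28206099) for 760 of 1346 reads in replicate 1 and 609 of 1040 in replicate 2. The downstream share was 56.5% and 58.6%, and the coding sequences were 1455 nt downstream and 1326 nt upstream. Adk makes a long nuclear and a short cytoplasmic form of adenosine kinase. The upstream first exon of the long form (coding sequence 1083 nt) held 52 of 166 and 35 of 138 reads, 31.3% and 25.4%, and the short form (1035 nt) held the rest. Oxr1, a gene of oxidation resistance, had the widest spacing. Its far upstream first exon (chr15:41447482-41447589) held 14 of 55 and 13 of 39 reads, and the start of the short form Oxr1-205 (chr15:41830932-41831129, coding sequence 648 nt against 2598 nt) held 38 and 25. Sgk1, which encodes a glucocorticoid-regulated kinase, had 3 starts past the read minimum, among 4 first exons read. The far upstream one of the 3 held 11 and 14 reads, the middle one 14 and 10, and the most downstream 25 and 34. Schip1 was read mainly from the short form's start, with 308 and 206 reads against 17 and 17 at the upstream start of a form with a coding sequence of 1368 nt instead of 732 nt.

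Distant starts without a change of the coding sequence formed a smaller group. Pacsin1, which encodes a neuronal protein of endocytosis, held 100 and 66 reads at chr17:27655509-27655759 and 106 and 64 at chr17:27685181-27685425, an upstream share of 48.3% and 50.8%. Its starts lie 29633 bases apart and share 1 start codon, with a coding sequence of 1323 nt from either. Cntn1, the gene of the cell adhesion protein contactin 1, held 73 and 79 reads upstream and 34 and 26 downstream, 110192 bases apart, with a coding sequence of 3060 nt from either. Atp2b2, a plasma membrane calcium pump gene, held 25 and 34 reads upstream and 20 and 13 downstream. Hnrnpf, which encodes an RNA-binding protein of splicing, had 3 starts past the read minimum that share a start codon. They held 57 and 62, 11 and 26, and 36 and 38 reads. At least 1 of its leading first exons is of the internal-donor kind.

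Several genes with very many reads were members through a small minority of them. Among the 10 genes with most reads, Gpm6b, Ndrg4, Cox4i1 and Hpca were not of this kind. Apoe, the apolipoprotein gene of astrocytes, held 5540 of 5632 and 4408 of 4473 reads at 1 first exon, 98.4% and 98.5%. Ubb, a polyubiquitin gene, held 99.7% in both libraries, with 17 and 11 reads at the second start. Bsg, which encodes basigin, had 12 and 11 reads at the second start, 0.679% and 0.935% of its reads. Actg1, the gamma-actin gene, held 97.4% and 97.1% at the leading start, and Slc17a7, the vesicular glutamate transporter of excitatory neurons, 98.3% and 97.7%. The second first exons of Apoe, Bsg, Actg1 and Slc17a7 were of the internal-donor kind, and that of Ubb had its own donor. Cox4i1, which encodes a subunit of cytochrome c oxidase, was divided more evenly. A downstream first exon of a transcript typed retained_intron (chr8:120672590-120672892), of the internal-donor kind, held 1743 of 2751 and 798 of 1307 reads, 63.4% and 61.1%. Sparc, which encodes a secreted matrix glycoprotein, likewise held 93 and 83 reads, 24.7% and 23.4%, at a first exon of a transcript typed retained_intron. Hpca had 85.0% of 1920 and 82.6% of 1484 reads at the middle one of its 5 first exons (chr4:129121222-129121291), and the other 4 held 0.809% to 8.76%. Hpca dropped out of the library comparison when internal-donor first exons were left out, so cut-short reads of longer forms could be counted there.

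Promoter sequence could be set beside 217 of the 438 first exons, in 150 genes, whose annotated start lay within 100 bases of a RefSeq start on GRCm38.p6. The window runs from 250 bases before to 50 bases after that start. The median ratio of observed to expected CG dinucleotides was 0.719 at these first exons, 0.383 over all 32817 RefSeq windows and 0.6003 over the 19360 of protein-coding genes. A ratio of at least 0.6, a usual mark of CpG islands, was found in 65.9%, 35.8% and 50.05% of windows. The letters TATAAA on either strand were present in 13 windows (5.99%), against 13.6% of all and 11.4% of protein-coding windows. Read genes and all genes differ in more than the number of starts, so these shares describe the windows and are not particular to alternative first exons.

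In 35 genes both leading starts had such a window and lay at least 1000 bases apart. Both windows reached a ratio of 0.6 in 14 of them and neither did in 6. In 15 genes 1 window reached it, the upstream one in 11 and the downstream one in 4. The CG-rich start was the one with more reads in 5 of these 15. Among the 25 of the 35 genes with own donors, 11 had 1 such window, the upstream one in 8 and the downstream one in 3, and the CG-rich start had more reads in 4. Rtn1 had a ratio of 0.187 upstream and 1.13 downstream, where most reads began. Chn1 had 1.07 upstream and 0.296 downstream, Prkacb 1.06 and 0.411, Acsl6 0.835 and 0.0388, and Rufy3, a gene of neuronal polarity, 0.996 and 0.118. In these 4 genes the CG-poor downstream start held more reads than the upstream one, with a share of 84.8%, 47.4%, 67.2% and 80.9% in the mean of the libraries. The downstream first exons of Chn1 and Rufy3 are of the internal-donor kind, so cut-short reads of longer forms could be counted there, while those of Prkacb and Acsl6 have their own donors.

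**Figure D4:**
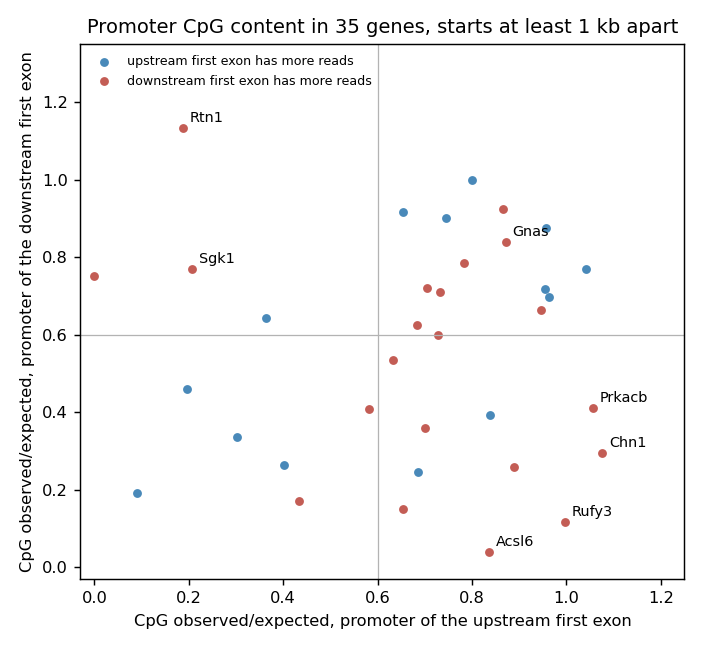
Ratio of observed to expected CG dinucleotides in the promoter window of the upstream (x axis) and downstream (y axis) first exon in 35 genes, coloured by which first exon had more reads. Lines mark a ratio of 0.6. Rtn1 and Sgk1 lie at the upper left, and Chn1, Prkacb, Acsl6 and Rufy3 at the lower right.

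Reads of unannotated spliced models were not used by the rule, and their first exons can be set beside those of the annotated reads. At first exons with their own donor, such models held 3186 reads in replicate 1 and 3173 in replicate 2, against 59023 and 46722 annotated reads. For 16 genes with own donors, at least 20 unannotated reads fell on the 2 leading first exons in each library. Taken as a percentage of the 2 leading first exons, the unannotated shares of the 2 libraries lay about as close together as the annotated ones. The median absolute difference was 2.67 points for unannotated and 3.75 points for annotated reads, with Pearson's r of 0.936 and 0.903 across these 16 genes. Between annotated and unannotated reads of the same genes r was 0.0569 and the median absolute difference 22.3 points. The same first exon led in 11 of the 16, and the other one led in Dlgap4, Fkbp8, Gpm6b, Gsn and Ralgds. Gsn, the gene of the actin-severing protein gelsolin, showed the widest gap. Its downstream first exon held 91.2% and 92.6% of annotated reads but 5 of 25 and 7 of 43 unannotated reads, 20.0% and 16.3%. In Ralgds, which encodes an exchange factor for Ral, the downstream first exon held 82.0% and 79.7% of annotated and 35.0% and 37.8% of unannotated reads. In Wasf1, an actin regulator, the values lay close together, 83.4% and 78.7% against 81.8% and 79.3%. A first exon share in annotated reads covers only the transcripts that the annotation lists. Why the annotated and unannotated shares differ was not tested.

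**Figure D5:**
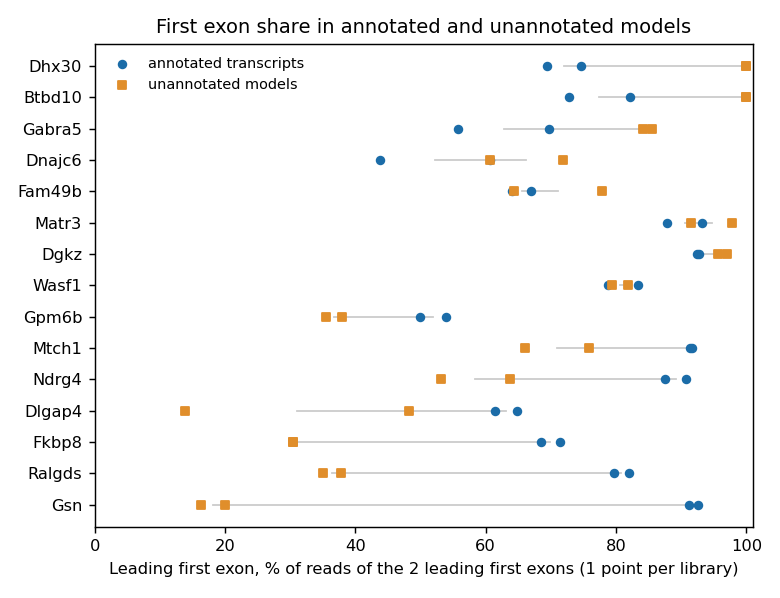
Share of the leading first exon among the reads of the 2 leading first exons (x axis, %) in 15 of the 16 genes, in annotated transcripts (circles) and unannotated models (squares), 1 point per library, with a line between the means. Points of 1 kind mostly lie close together, less so in Dlgap4 (unannotated 13.8% and 48.1%), and the means stand apart by over 30 points in Gsn, Ralgds, Fkbp8, Dlgap4 and Ndrg4.

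Nell2, which encodes a secreted neural glycoprotein, shows what annotated first exons can leave out. Its annotated first exons lie 307 bases apart (chr15:95528476-95528559 and chr15:95528231-95528252) and held 130 and 136 reads, and 105 and 116 reads. Their shares were 55.3% and 54.0% for the upstream one. Reads of incomplete splice matches, whose splice junctions are only the later ones of an annotated transcript, made up 639 of 983 spliced reads of the gene in replicate 1 and 628 of 1031 in replicate 2, 65.01% and 60.9%. The median over the 212 genes was 3.94% and 4.09%. The largest such model had 20 exons and 555 reads in replicate 1, with its first exon at chr15:95527801-95528252. It begins at the base where the downstream annotated first exon begins and continues past that exon's donor. The largest in replicate 2 also had 20 exons, with 563 reads, and its first exon at chr15:95527801-95528178. These first exons end at another donor than the annotated ones, and their reads are outside the shares.

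The read minimum decides membership at its edge. 23 first exons of the members had exactly 10 reads in the library with fewer, such as 1 of Sgk1. Another 28 first exons with a lower count of 9 stood beside a first exon that passed, and 25 of their genes were not members. 11 of the 438 first exons, in 9 genes, overlapped an exon of another gene on the same strand, and 41 one on the opposite strand, where reads could be assigned to either gene if strand was not kept. Intervals and tests cover counting error only, and with 1 group and 2 pooled libraries the spread between mice was not measured.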

How the data were processed

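Long-read RNA sequencing of 2 libraries in 1 group was used. Per the file headers, the authors deposited for each library a table of unscaled counts of reads assigned to each transcript model. The models are those of GENCODE M21 on mm10 plus models that TALON, named in the deposited annotation, built from each library, whose exon coordinates and lengths were used unchanged. With aligner and filters not given in the sources used here, how 5′ ends were trimmed is unknown. First exons of annotated spliced transcripts (2 or more exons) with at least 1 read in either library were joined where they overlapped on a strand. Members had 2 or more joined first exons with at least 10 reads in each library. Positions are annotated ones, not read ends. The test was Fisher's exact test with Benjamini-Hochberg adjustment at 0.05 over 1332 genes with at least 20 first exon reads in each library. It was tested on simulated data. Shares have exact Clopper-Pearson intervals at 95%. Members, lists and tests were chosen with earlier results of these data known. Named genes are the listed members with at least 50 reads in each library (shallower listed members are given by their values), the 10 with most reads, called members, the 5 widest, the 5 most balanced, those with most first exons and the 3 with most reads at unannotated first exons. Others were named after their values were seen. Tests ran in scipy 1.17.1, tables in pandas 2.3.3 with numpy 2.4.6, and plots in matplotlib 3.10.9, under Python 3.11.15. Alternatives are given at the end. Some members are not reported here by name.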

Additional observations from a re-analysis of the deposited data

Results flagged for a closer look

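Reads outside the annotated first exons are given for the 3 named genes with the most of them, on unannotated models that begin in a first exon of no annotated transcript of the gene. Nell2 had 187 such reads, 79 in replicate 1 and 108 in replicate 2, at chr15:95528608-95528875, upstream of both annotated first exons that were read. It was the only one of the 212 genes with at least 10 such reads in each library at 1 first exon, while 31 first exons of this kind did so over all genes. Tsc22d3, a glucocorticoid-induced leucine zipper gene, had 15, 8 and 7 by library, at chrX:140598917-140599216. This lies far upstream of the 2 annotated first exons of the gene that were read, chrX:140542846-140543187 and chrX:140542511-140542668. Slc17a7 had 14, 10 and 4 by library, at chr7:45167996-45168150, between annotated first exons of the gene that were read. Other named genes had fewer at 1 such first exon, 12 in Aldoa, 6 in Hnrnpf, 5 in Gpm6b and 3 in Sparc. No control samples exist. The first 3 genes were chosen for having the most such reads. That their sums exceed 3 reads, the limit of a count of 0 in 1 library, is therefore no support.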

How the results depend on the processing

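The number of genes and first exons followed the rule's settings: 383 genes and 802 first exons at 5 reads, 103 and 211 at 20 reads, 135 and 275 with first exons closer than 500 bases merged, and 102 and 208 without internal-donor first exons. With the rule applied to 1 library alone, 246 to 298 genes and 513 to 619 first exons passed. The other alternatives stayed within 1.5 times of the main counts, 1 of them (leaving out transcripts with an incomplete annotated start) chosen after seeing the data. Counting all spliced models gave 3 genes past the threshold of 1520 tested (60 at an unadjusted p under 0.05), the members Rtn1 and Ndrg4 (2) and Slc37a4, which is no member. With forms within 1.5 times in length, Fisher's exact test called 0 genes, and 0 members, of 567 (18 at an unadjusted p under 0.05), a set that leaves Rtn1 out. Fewer tested genes or other reads enter by construction. The other alternatives called Rtn1 alone. The median leading share of 71.5% was 73.1% with all models, 77.0% at 5 reads and 69.1% at 20 reads, and 71.2% to 71.8% in either library alone. Of 231 alternative values for single genes, 4 that missed the threshold changed sign (2 for Abr, 1 each for Hnrnpf and Podxl2) and Ndrg4 passed it, and the cause was not tested. The leading first exon was chosen anew in each alternative, so a changed sign need not refer to the same first exon. No paired analysis was possible because the series has 1 group. Depth limits genes with under 100 reads, where shares near 50% are uncertain by about 10 points or more.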
